A study of Mus musculus with 2 samples.

Results

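Among thymocytes of 4 hashtag rows taken as stage 3 iNKT cells by marker genes, 182 cells were chosen by 7 genes of DNA replication. They carried at least 6 unique molecular identifiers (UMIs, each a counted transcript molecule) on Mcm2, Mcm3, Mcm5, Ung, E2f1, Hells and Lig1. These replication-gene cells were 3.16% of the 5758 cells of the 4 hashtag rows examined (95% Clopper-Pearson interval 2.72 to 3.65), and 182 of the 16179 barcodes of the whole matrix. They are described beside the 4776 comparison cells of the same rows, in which the 7 genes summed to 0 or 1 UMI. The other 800 cells, with sums between these limits, belong to neither group. The cells were chosen by their measured UMIs on these 7 genes, so their levels are no finding, and because every value comes from the cells so chosen, no test was made.

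The cells came from Ctrl and T-KO mice on the C57BL/6 background. In T-KO mice the floxed Kidins220 alleles are deleted by Cre under the proximal Lck promoter, which acts from the early T cell stages on, so the deletion is not limited to iNKT cells. Thymi of 4 mice per genotype were pooled, and stage 0 cells (TCRβ+ CD1dt+ CD24+ NK1.1-) and stage 3 cells (TCRβ+ CD1dt+ NK1.1+ CD24- CD44+) were sorted, each in 2 parallel preparations. The 8 populations were marked with hashtag antibodies and run as 1 droplet library that reads transcripts from the 5′ end, with 1 hashtag library on the same barcodes. Ages of the mice are stated as a range over all experiments, not for these animals. No source pairs the hashtag rows in use, 11 to 18, with populations, so no row is called Ctrl or T-KO, and the rows are given as 4 unassigned populations of 1 pooled sample. Values by row follow the order 12, 14, 16 and 18.

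The stage of the rows was read from marker genes alone, as no source pairs the rows with populations. Klrb1c, which encodes the NK1.1 of the sort, stood between 328 and 444 CPM (the UMIs of a gene summed over cells, scaled to 1000000 UMIs) in these 4 rows and between 4.78 and 6.57 CPM in the other 4 rows. Nkg7 stood between 1448 and 1584 against 62.7 and 87.4 CPM, and Tbx21, the T-bet gene of the iNKT1 program, between 168 and 216 against 2.78 and 5.14 CPM. Cd24a, which marks stage 0, stood between 23.3 and 34.2 CPM in the 4 rows and between 313 and 365 CPM in the others. The 4 rows held 2283162 to 7308192 gene UMIs each.

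An iNKT1 cell at stage 3 is a mature thymic resident that carries an invariant TCR, NK receptors and a store of effector transcripts, and most such cells are not dividing. A cell that leaves rest first loads the Mcm2 to Mcm7 helicase onto replication origins, with Cdc6 and Cdt1, while E2F factors drive the genes of replication. In S phase it then makes deoxynucleotides, polymerases, the sliding clamp Pcna and histones, and only later the cyclins, kinesins and kinetochore proteins of mitosis. Replicating cells can therefore be at different points of this order.

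The share of replication-gene cells differed between rows. There were 39 of 1752 cells in row 12 (2.23%, interval 1.59 to 3.03), 56 of 2162 in row 14 (2.59%, 1.96 to 3.35), 33 of 577 in row 16 (5.72%, 3.97 to 7.94) and 54 of 1267 in row 18 (4.26%, 3.22 to 5.52). The intervals of rows 12 and 14, 14 and 18, and 16 and 18 overlapped, those of the other pairs did not, and row 16 had the fewest cells. The intervals cover counting error only. The rule is a limit on raw UMIs, and the median depth of all cells was 3312.5, 3258, 3804 and 3663 UMIs in the 4 rows. The part of depth in the shares was not tested.

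**Figure D1:**
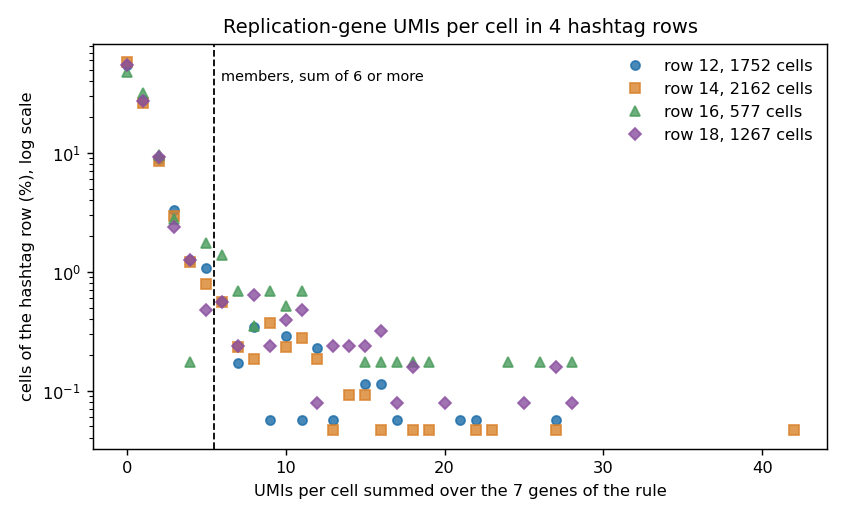
Share of the cells of each hashtag row (log axis, percent) by the UMIs summed over the 7 genes of the rule; each point is 1 sum in 1 of the 4 rows, sums with no cell are not drawn, and the dashed line marks the limit of 6. Most cells had a sum of 0 or 1, and the tail beyond the limit, 182 cells, had no gap from the rest.

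The limit cuts a continuous tail. With a sum of 5 there were 52 cells and with a sum of 6 there were 37. Mcm6, which the rule does not use, stood at 325 CPM just outside the limit and at 356 CPM just inside it, and Rrm2 at 55.6 and 173 CPM. Of the 182 cells, 3 carried UMIs of only 2 of the 7 genes, 22 of 3, 43 of 4, 58 of 5, 41 of 6 and 15 of all 7. The cells were also deep: their median was 6998.5 UMIs, against 3300 in the comparison cells, and a limit on raw UMIs selects deep cells. Thinned to 2000 UMIs each, the replication-gene cells had a median of 1097.5 genes and the comparison cells 1076, with 499 comparison cells too shallow to thin. Ratios were therefore also computed among cells of 5409.25 to 8619.75 UMIs, the middle range of the replication-gene cells, which held 90 of them and 149 comparison cells. That value is called the depth-matched ratio below, and its list medians are over the genes of the main median. As another setting, every cell was thinned to 2000 UMIs.

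At this depth the comparison cells were unusual. Of the 149, 37 (24.8%) carried at least 2 UMIs on each of 2 or more TRBV segments, which 2 cells in 1 droplet can give, against 13 of the 90 replication-gene cells (14.4%). Their B cell markers summed to 2295 CPM, against 227 CPM in the replication-gene cells of that range. Over all depths the TRBV sign was seen in 16.5% of the replication-gene cells and 8.25% of the comparison cells. The part of such droplets in the differences below was not tested beyond leaving them out, which kept 275 of the 281 genes called higher and 40 of the 43 called lower.

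The rule genes set the scale. Mcm3, a helicase subunit, stood at 387, 443, 387 and 391 CPM in the replication-gene cells and at 25.3, 24.5, 23.5 and 22.9 CPM in the comparison cells. E2f1, the factor that activates many replication genes, stood at 79.4, 83.5, 128 and 60.8 CPM against 2.95, 3.59, 3.01 and 2.69 CPM. Ung, which removes uracil from DNA, stood at 82.9, 150, 67.9 and 133 CPM against 8.42, 5.82, 8.43 and 6.74 CPM. These 3 genes belong to the rule, so neither their levels nor their differences between rows are a finding.

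Across the transcriptome, 6672 genes reached 20 CPM in either group. Ratios are log2 of CPM plus 10 in the replication-gene cells over the comparison cells, and their median over all genes was -0.02. A gene is called higher or lower at a log2 ratio of 1 or more in size with the same direction in 4 of 4 rows, which 281 genes met upwards (4.21%) and 43 downwards (0.644%). Without row 14, where a call needed the same direction in 3 rows, 67 genes were called lower. Direction alone is a weaker mark, since 21.5% of all genes were higher and 23.7% lower in 4 of 4 rows. Row levels are also given below as overlapping or not, without the share over all genes, so this is description only.

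Genes of origin licensing and the replicative helicase outside the rule were higher almost throughout. Of 17 genes, 15 reached the minimum, 13 were called higher against the background of 4.21%, none was called lower, and the median log2 ratio was 1.71 (depth-matched 1.75). For 7 of the 15 the minimum was reached in the replication-gene cells only, so those could only be higher. Mcm6, the helicase subunit with the highest level of this list, stood at 418, 482, 539 and 409 CPM against 97.7, 114, 112 and 117 CPM, a log2 ratio of 1.96. The 2 sets did not overlap. Cdc6, a helicase loader, stood at 65.6, 61.3, 55.9 and 53.8 CPM against 4.00, 3.25, 3.61 and 2.16 CPM (log2 ratio 2.38), and Gmnn, which blocks loading a second time, at 159 against 22.9 CPM (2.36). The smallest ratios were those of Gins4 (0.61) and of Dbf4 (0.64, depth-matched 0.02), the partner of the Cdc7 kinase.

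The letters of E2F sites were looked for in the promoters of these genes. RefSeq promoters of GRCm38.p6, from 250 bases before to 50 after each start, were searched on both strands for TTTGGCGC, TTTCCCGC, TTTGCCGC and TTTCGCGC, each promoter counted once even where matches overlap. At least 1 match lay in 744 of 32851 promoters (2.26%), in 4 of the 9 promoters of the 7 rule genes (44.4%), in 7 of 14 promoters of the licensing list (50%) and in 11 of 37 of the fork and repair list (29.7%). In nucleotide synthesis genes it was 1 of 36 (2.78%), and 0 of 27 effector, 0 of 29 NK receptor, 0 of 38 cytokine receptor and 0 of 31 glycolysis promoters held one. Mcm5 and Hells are genes of the rule, so their level was set by the choice of cells. Mcm6, Cdc6 and Uhrf1, outside the rule, were higher in these cells. The windows show the match nearest the start, in capitals, for these 5 replication genes, read on the strand of the gene. They lie at chr8:75109349-75109378 (+) for Mcm5, chr19:38930917-38930946 (+) for Hells, chr1:128359734-128359763 (-) for Mcm6, chr11:98908002-98908031 (+) for Cdc6 and chr17:56304117-56304146 (+) for Uhrf1, all upstream of the start.
Mcm5: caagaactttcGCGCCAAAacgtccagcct
Hells: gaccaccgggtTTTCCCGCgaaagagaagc
Mcm6: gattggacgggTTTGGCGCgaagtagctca
Cdc6: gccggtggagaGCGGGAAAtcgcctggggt
Uhrf1: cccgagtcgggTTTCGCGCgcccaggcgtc
The match to Mcm6, 47 bases before its start, reads in the direction of the gene, and that to Mcm5, 149 bases before, on the other strand. A match is a description of the letters, not of a bound site.

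At the fork itself 39 of 42 genes were called higher and 41 were higher in 4 of 4 rows, beside 4.21% and 21.5% of all genes. The median log2 ratio was 1.63 (depth-matched 1.60), and 21 of the 42 reached the minimum only in the replication-gene cells. Pcna, the sliding clamp, stood at 297, 315, 300 and 318 CPM against 84.6, 92.0, 93.4 and 84.6 CPM, a log2 ratio of 1.70. Uhrf1, which brings the maintenance methylase to new DNA, stood at 197, 153, 148 and 157 CPM against 14.9, 13.2, 15.7 and 9.70 CPM, and that methylase, Dnmt1, at 335 against 93.5 CPM. The row levels of these genes were apart for all 3. Clspn, a checkpoint mediator (log2 ratio 2.81), and Fen1, which trims Okazaki fragments (2.04), were higher too.

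Nucleotide synthesis split by step. Of 28 genes compared, 14 were called higher and 27 were higher in 4 of 4 rows (median 1.00), beside 4.21% and 21.5% of all genes. For 5 of the 28 the minimum was reached in the replication-gene cells only, so those could only be higher. The largest ratios belonged to the making of deoxynucleotides. Rrm2, the S phase subunit of ribonucleotide reductase, stood at 356, 161, 268 and 370 CPM against 17.3, 21.6, 18.7 and 24.5 CPM, with a log2 ratio of 3.29, the largest outside the rule genes. Tk1, the thymidine kinase of S phase, reached 2.81 and Tyms, thymidylate synthase, 2.15. Of the purine ring steps, which resting cells also run, Gart had 0.53, Atic 0.68 and Paics 0.99, and Adsl 0.36 with 0.04 among depth-matched cells. Slc29a1, a nucleoside transporter, stood at 118 against 32.8 CPM (1.58), and Mthfd2, of mitochondrial folate metabolism, at 94.2 against 29.2 CPM (1.41).

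Genes of mitosis, outside the rule, were higher as a list and uneven between cells. Of 35 compared, 33 were called higher, beside 4.21% of all genes, and 26 reached the minimum in the replication-gene cells only (median 1.82, depth-matched 1.52). Mki67, the proliferation antigen gene, stood at 456, 295, 311 and 629 CPM against 43.8, 38.5, 47.6 and 46.3 CPM. Top2a, which untangles replicated DNA, stood at 338, 259, 256 and 438 CPM against 48.6, 56.4, 53 and 53.9 CPM. Pttg1, the securin gene, went the other way, at 45.2 against 72.1 CPM and lower in 4 of 4 rows. Stmn1, a microtubule destabiliser, was among the leading genes at 815 against 81.5 CPM.

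The letters TTTGAA of the cell cycle homology region, were searched on both strands. They lay in 23 of 32 promoters of the mitosis list (71.9%), against 5878 of all 32851 (17.9%), 1 of the 9 rule gene promoters (11.1%) and 5 of 37 fork and repair promoters (13.5%). Other lists held them in 5 of 14 licensing (35.7%), 9 of 29 NK receptor (31%), 10 of 38 cytokine receptor (26.3%), 5 of 27 effector (18.5%), 4 of 31 glycolysis (12.9%) and 4 of 36 nucleotide synthesis promoters (11.1%). E2F letters lay in 1 of the 32 (3.12%). The windows show the match nearest the start for 3 mitosis genes, at chr11:99024194-99024223 (-) for Top2a, chr10:69352913-69352942 (-) for Cdk1 and chr7:80294435-80294464 (+) for Prc1, again upstream and on the strand of the gene.
Top2a: ctagataaaggTTCAAAtgaaactagggaa
Cdk1: ctttaccgcggcgagTTTGAAactgctggc
Prc1: ctctggctcggTTTGAAttccgcggggtcc
The matches of Top2a, Cdk1 and Prc1 begin 23, 15 and 30 bases before the start. The 3 genes stood at 333, 73.9 and 75.4 CPM in the replication-gene cells and at 53.2, 13.8 and 9.71 CPM in the comparison cells.

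**Figure D2:**
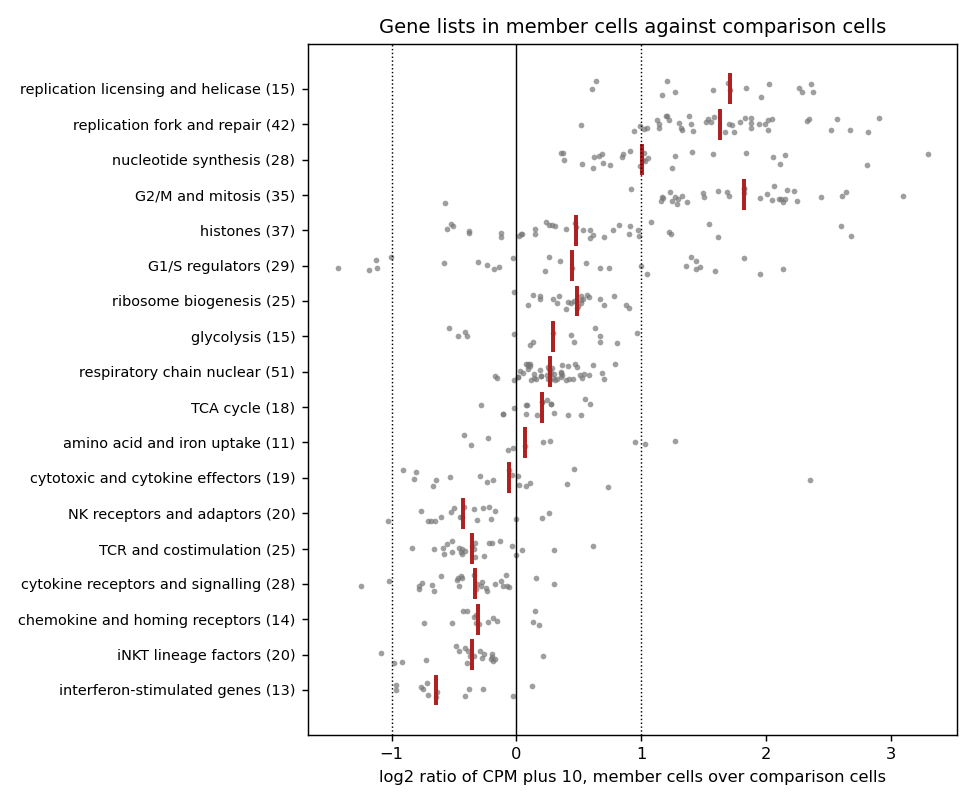
Each point is a gene that reached 20 CPM in either group, placed by its log2 ratio of CPM plus 10 in the replication-gene cells over the comparison cells; red bars are list medians, numbers in brackets are genes, and dotted lines mark ratios of -1 and 1. The replication, nucleotide and mitosis lists lie to the right, histones and G1/S regulators spread widely, and receptor lists lie left of 0 within about 1 unit.

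The replication-gene cells were not alike. Summed over the 37 genes of the mitosis list, 115 cells carried under 10 UMIs (63.2%, interval 55.7 to 70.2) and 67 carried 10 or more (36.8%, 29.8 to 44.3), of which 28 carried 50 or more and the highest 209. The limit of 10 was set after the values were seen, and 20 cells lay near it, with 7 to 12 UMIs. Mitosis-high cells were 14 of 39, 15 of 56, 14 of 33 and 24 of 54 in the 4 rows. Of the comparison cells, 19 of 4776 carried 10 or more, and they were kept in that group. The mitosis-high cells were deeper, with a median of 8556 UMIs against 6172 in the mitosis-low cells.

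**Figure D3:**
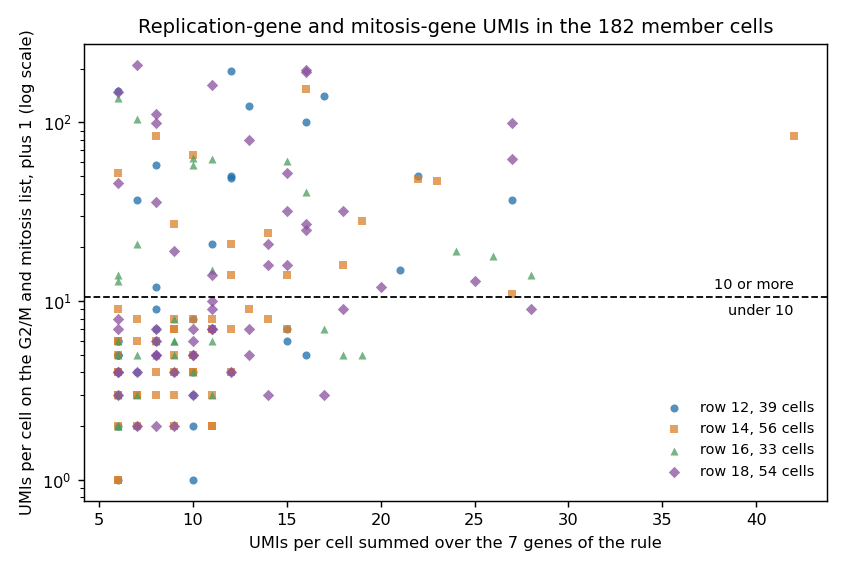
Each point is 1 of the 182 replication-gene cells, placed by its UMIs on the 7 rule genes and by its UMIs on the 37 mitosis genes plus 1 (log axis), with colour and shape for the hashtag row; the dashed line parts 115 cells under 10 from 67 cells with 10 or more. Cells of every row lie on both sides of the line.

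As lists, replication genes outside the rule were higher in both sets than in the comparison cells, and to different degrees. Not every gene was, and Rrm2 in the mitosis-low cells is given below. Within the licensing list Mcm4 stood at 294 CPM in the mitosis-low and 337 CPM in the mitosis-high cells and Mcm6 at 431 and 485 CPM, whereas Cdc45, a helicase cofactor, stood at 30.3 and 86.7 CPM and Gins3, of the same complex, at 13.8 and 66.7 CPM. Of its genes 3 were called higher and 0 lower in the mitosis-high over the mitosis-low cells, against backgrounds of 4.44% and 0.72%. The median log2 ratio of mitosis-high over mitosis-low cells was 0.67. For fork and repair genes that median was 0.69 and for nucleotide synthesis 0.30. Rule genes were of like height in both sets, as all these cells were chosen on them. Against the comparison cells the licensing list had a median of 1.45 in the mitosis-low cells, with 11 genes called higher and 0 lower against backgrounds of 1.57% and 0.566%, and the fork and repair list had 1.25, with 27 called higher.

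The largest differences between the sets included some genes of DNA synthesis. Rrm2 stood at 18.6, 25.3, 39.6 and 14.8 CPM in the mitosis-low cells, beside 17.3, 21.6, 18.7 and 24.5 CPM in the comparison cells, and at 779, 426, 500 and 688 CPM in the mitosis-high cells. Tyms stood at 30.3 and 247 CPM in the mitosis-low and mitosis-high cells, Tk1 at 37.1 and 212 CPM, and Pclaf, a Pcna-associated factor, at 41.3 and 709 CPM. Rrm2 in the mitosis-low cells thus stood near the level of the comparison cells and Pcna, at 208 against 88.2 CPM, above it. The comparison cells kept their 19 cells with 10 or more mitosis UMIs, while the mitosis-low cells have none by choice. The part of this one-sided limit in the levels of Rrm2 and the histone genes was not tested. Ccne1, the cyclin of S phase entry, stood at 12.4, 8.44, 7.91 and 9.89 CPM against 62.3, 90.1, 96.8 and 79.9 CPM, with no overlap between the mitosis-low and mitosis-high rows.

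Histone transcripts followed the same line. They end in a stem-loop, bound by the product of Slbp, in place of a poly(A) tail for the most part. Over 37 histone genes the median log2 ratio was -0.72 for mitosis-low over comparison cells, with 0 called higher and 3 called lower, and 1.75 for mitosis-high over mitosis-low cells, with 28 called higher and 0 lower against backgrounds of 4.44% and 0.72%. Hist1h1b, a linker histone, stood at 118, 122, 142 and 138 CPM in the mitosis-low cells and at 935, 778, 355 and 1008 CPM in the mitosis-high cells, with 251 CPM in the comparison cells. Slbp stood at 226 CPM in the mitosis-low and 480 CPM in the mitosis-high cells. Summed over the 115 mitosis-low cells, most licensing genes were above the comparison level while Rrm2 stood near it and the median histone gene below it. That level includes the 19 comparison cells with 10 or more mitosis UMIs.

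**Figure D4:**
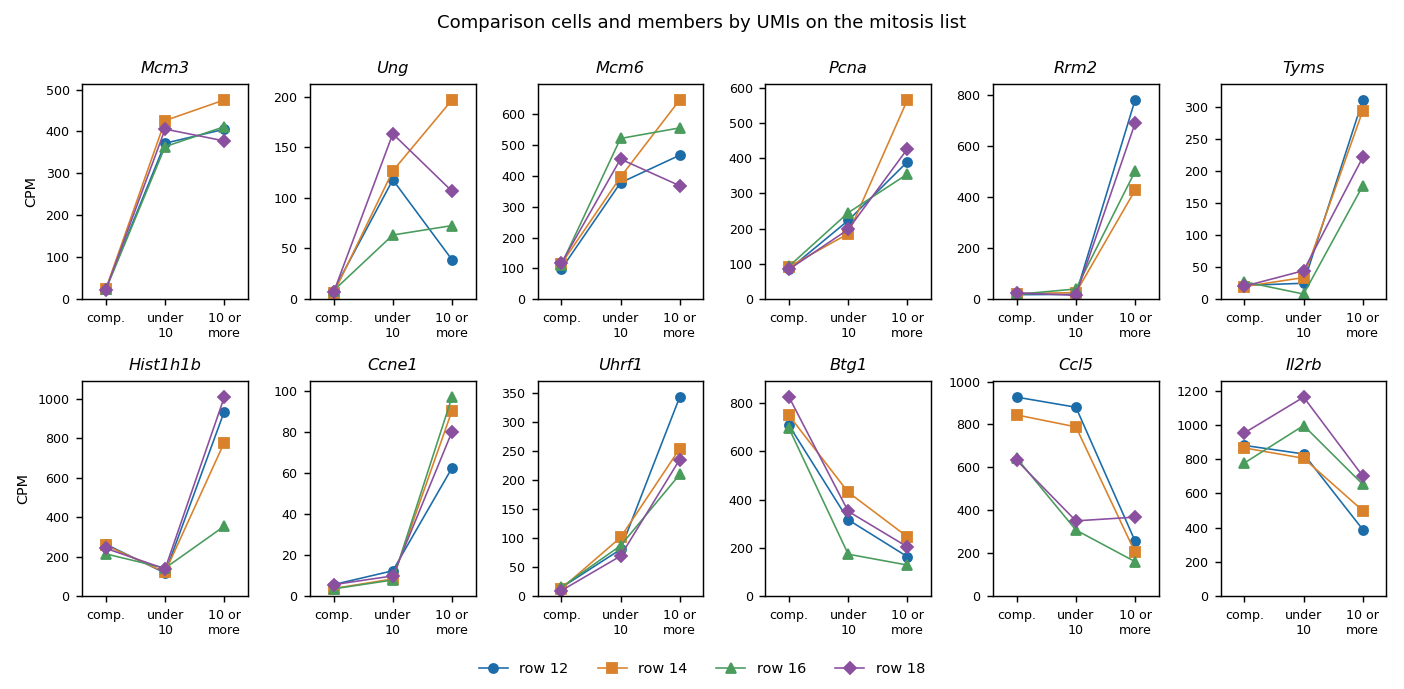
CPM of 12 genes in comparison cells, in replication-gene cells with under 10 UMIs on the mitosis list and in those with 10 or more, each line 1 of the 4 hashtag rows. Mcm3 and Ung are genes of the rule, Rrm2, Tyms, Hist1h1b and Ccne1 are high in 1 of them, and Btg1 and Il2rb are lowest there.

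The regulators of G1 and S phase moved in both directions. Of 29 compared, 10 were called higher and 5 lower, against backgrounds of 4.21% and 0.644%. For 10 of the 29 the minimum was reached in the replication-gene cells only, so those could only be higher. Higher were the E2F partner Tfdp1 (109 against 29.7 CPM), E2f2, which varied most between rows at 44.9, 8.35, 91.8 and 77.2 CPM, and Cdk2. Cdk4 stood at 386 against 189 CPM. The 5 called lower are all known for restraining growth or division. Btg1, which promotes mRNA deadenylation in resting lymphocytes, stood at 249, 368, 152 and 274 CPM against 706, 747, 694 and 823 CPM (log2 ratio -1.43, depth-matched -1.19). Cdkn1b, the p27 inhibitor of cyclin-dependent kinases, stood at 72.5, 44.5, 51.9 and 46.8 CPM against 121, 133, 115 and 128 CPM (-1.12, depth-matched -0.96). Mxd4, an antagonist of Myc (-1.18), Tob1 (-1.12) and Btg2 (259 against 527 CPM) were the others. None of the 5 overlapped between groups, but all 5 were already chosen as lower in every row. Among cyclins D, Ccnd2 stood at 424 CPM in the mitosis-low and 168 CPM in the mitosis-high cells, with 384 CPM in the comparison cells, whereas Ccnd3 stood at 721 and 796 CPM against 510 CPM. Myc itself stood at 160 against 177 CPM over all replication-gene cells, with 206 CPM in the mitosis-low and 103 CPM in the mitosis-high cells.

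The invariant receptor was detected in both groups. Trav11 and its copies, from which the invariant TCRα chain is made, held 48 of 202 TRAV UMIs of the replication-gene cells (23.8%, interval 18.1 to 30.2) and 1054 of 3606 of the comparison cells (29.2%, 27.7 to 30.7). By row the share was 21.3, 21.1, 31.8 and 25% against 27.3, 28.4, 31.7 and 31.6%. Trbv13-2 held 45.5% of the TRBV UMIs in the replication-gene cells and 48.7% in the comparison cells, and Trbv13-1 held 21.1% against 12.6%. Since a cell gives many UMIs of its own segment, these intervals are too narrow for shares of cells.

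Of the 7 iNKT1 markers, 1 was called lower and 6 were not called. Nkg7, a granule membrane protein, stood at 1395, 1665, 1490 and 1462 CPM against 1540, 1579, 1438 and 1530 CPM, which overlap. Tbx21 stood at 174 against 202 CPM, Il2rb, the receptor chain for IL-15, at 781 against 882 CPM, Xcl1, a chemokine, at 301 against 285 CPM, and Cd160 at 183 against 158 CPM. Klrd1, the CD94 chain, was lower in 4 of 4 rows at 427 against 583 CPM. Klrb1c was the exception, at 176, 237, 168 and 225 CPM against 398, 451, 358 and 481 CPM, with no overlap and a log2 ratio of -1.03. Among depth-matched cells its ratio was -0.50, and after thinning -1.04. Il2rb stood at 944 CPM in the mitosis-low cells and at 584 CPM in the mitosis-high cells, lower in 4 of 4 rows and without overlap.

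Effector genes held no call in either direction. Of 19 compared, 0 were called higher and 0 lower. In 4 of 4 rows 1 was higher and 7 were lower, beside 21.5% and 23.7% of all genes. The median log2 ratio was -0.06. Without row 18 that median was -0.42. Gzmb, the protease granzyme B, was the member higher in every row, at 401, 504, 555 and 833 CPM against 263, 318, 463 and 487 CPM (log2 ratio 0.73, depth-matched 0.49). The sets overlap, because the levels of rows 16 and 18 exceeded those of rows 12 and 14 in both. Gzmb was of similar height in mitosis-low and mitosis-high cells, at 618 and 572 CPM. Ccl5, a chemokine of mature cytotoxic cells, stood at 604, 590, 236 and 360 CPM against 927, 844, 643 and 633 CPM, which did not overlap (-0.81, depth-matched -0.44, thinned -1.04). Within rows 12 and 14 Ccl5 was high in the mitosis-low cells, at 880 and 789 CPM, and low in the mitosis-high cells, at 257 and 205 CPM. In rows 16 and 18 the mitosis-low cells stood at 308 and 351 CPM and the mitosis-high cells at 161 and 369 CPM.

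Cytokine transcripts were lower or level. Ifng stood at 107, 106, 87.9 and 126 CPM against 176, 195, 102 and 120 CPM, lower in 3 of 4 rows with overlap. Fasl, the death ligand, stood at 100, 61.3, 39.9 and 56.2 CPM against 136, 138, 107 and 114 CPM (-0.91), with a depth-matched ratio of -0.19 and a thinned one of -0.97. Ltb, lymphotoxin beta, stood at 518 against 921 CPM (-0.82, depth-matched -0.45), and Il4 at 17.3 against 32.8 CPM. Tnf, at 36.9 against 38.8 CPM, was within its counting interval (27.3 to 48.8). Gzmc, at 308 against 52.5 CPM, rests on a single cell of row 18 that held 382 of the 409 UMIs, and without it the level was 20.5 CPM.

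NK receptors were lower as a list. Of 20 compared, 0 were called higher and 1, Klrb1c, lower, 1 was higher and 11 were lower in 4 of 4 rows beside the 23.7% of all genes, and the median was -0.43. At matched depth it was -0.31 over the same genes and -0.45 over the genes that reach 20 CPM in those cells. Klrk1, which encodes the activating receptor NKG2D, stood at 186, 192, 311 and 271 CPM against 400, 397, 417 and 453 CPM, with no overlap and the same ratio at matched depth (-0.76 and -0.77). Hcst, the adaptor of that receptor, stood at 329 against 536 CPM (-0.69, depth-matched -0.18). Klra9, a Ly49 gene, depended on the row, at 663, 510, 136 and 260 CPM against 720, 783, 292 and 294 CPM. The Ly49 gene Klra3 did not differ, at 176 CPM in both groups.

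Cytokine receptors held 2 of the clearer differences. Of 28 compared, 0 were called higher and 2 lower (median -0.33, depth-matched -0.20). In 4 of 4 rows 15 were lower, beside 23.7% of all genes. Il7r, the receptor of the survival cytokine IL-7, stood at 394, 412, 427 and 292 CPM against 878, 886, 895 and 942 CPM (log2 ratio -1.25, depth-matched -0.87). Ifngr1 stood at 190, 251, 208 and 250 CPM against 455, 468, 452 and 522 CPM (-1.02, depth-matched -0.76). Neither overlapped, and both were lowest in the mitosis-high cells, with Il7r at 461 and 265 CPM and Ifngr1 at 294 and 150 CPM in mitosis-low and mitosis-high cells. Il18r1, for IL-18, had -0.75 and Bcl2, a survival gene downstream of IL-7, -0.67. The shared chain Il2rg differed less, at 742 against 876 CPM, and Socs1, Cish and Pim1, which cytokine signals induce, had ratios of -0.28, -0.06 and -0.11.

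Il7r was also graded by the sum of the 7 genes. Cells with sums of 0, 1, 2 to 3 and 4 to 5 stood at 926, 845, 787 and 642 CPM, and those with 6 to 9 and with 10 or more at 466 and 306 CPM. Btg1 ran from 764 to 217 CPM over the same classes, and Gapdh upwards from 1858 to 3586 CPM. The median depth of these classes ran from 3245 to 7731.5 UMIs, and its part in the gradient was not tested apart from the depth-matched ratios.

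The TCR complex and costimulatory genes were lower by small amounts. Of 25 compared, 0 were called (median -0.35, depth-matched -0.18). In 4 of 4 rows 1 was higher and 16 were lower, beside 21.5% and 23.7% of all genes. Cd3e stood at 1119, 1114, 1082 and 1062 CPM against 1290, 1423, 1375 and 1456 CPM, which did not overlap, with ratios of -0.34 over all cells, -0.09 at matched depth and -0.32 after thinning. Nr4a1 and Egr1, which TCR signals induce, stood at 23.4 against 17.2 CPM and at 66.3 against 98.9 CPM, with no common direction over the 4 rows. The immediate early genes Junb, Fos and Dusp1, outside the lists and chosen after their values were seen, were called lower. Junb stood at 511 against 1229 CPM (log2 ratio -1.25, depth-matched -0.90, thinned -1.11), Fos at 146 against 346 CPM (-1.19, -0.85 and -1.20) and Dusp1 at 311 against 682 CPM (-1.11, -0.59 and -1.10).

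Homing receptors and lineage factors behaved alike. Of 14 chemokine and homing receptor genes 0 were called and 9 were lower in 4 of 4 rows (median -0.31). Among these were Cxcr3 (198 against 270 CPM) and Cxcr6 (191 against 278 CPM). Over all genes, 23.7% were lower in 4 of 4 rows. Of 20 lineage factors 1 was called lower, and 9 were lower in 4 of 4 rows (median -0.36). That gene was Maf, at 20.7, 22.3, 20.0 and 21.1 CPM against 55.4, 58.2, 55.4 and 53.6 CPM, although its depth-matched ratio was -0.41. Zbtb16, which encodes PLZF, stood at 54.3 against 74.8 CPM and Ikzf3, which encodes Aiolos, at 162 against 212 CPM. Klf6 had -0.98 and Klf2, which controls exit from the thymus, -0.41.

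**Figure D5:**
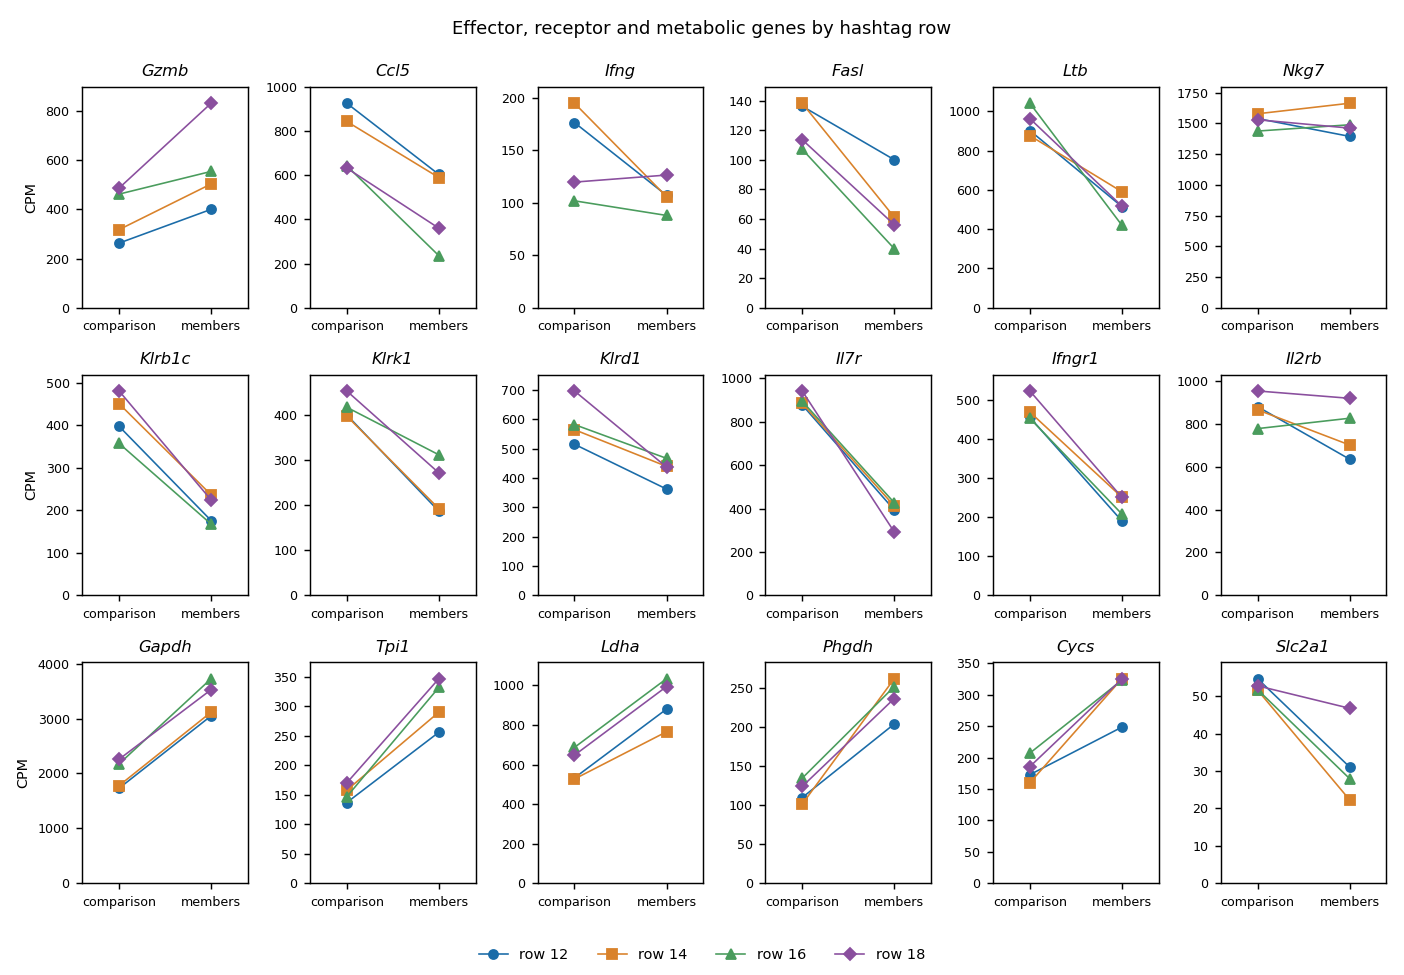
CPM of 18 effector, receptor and metabolic genes in comparison cells and in replication-gene cells (members), each line 1 of the 4 hashtag rows, with axes from 0. Gzmb and the glycolytic genes but Slc2a1 were higher in every row, Nkg7 stayed level, and Il7r, Ifngr1, Klrb1c and Ltb were lower in every row.

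Metabolic genes were higher by less than the call, and not throughout. Of 15 glycolytic genes 0 were called (median 0.29, depth-matched 0.12). In 4 of 4 rows 6 were higher and 4 lower, beside 21.5% and 23.7% of all genes. Gapdh stood at 3049, 3116, 3726 and 3526 CPM against 1728, 1777, 2172 and 2257 CPM (log2 ratio 0.80, depth-matched 0.47), and Tpi1, which precedes it in the pathway, at 255, 290, 331 and 346 CPM against 136, 157, 146 and 170 CPM (0.97, depth-matched 0.65). Ldha, which makes lactate, stood at 915 against 573 CPM and Pkm at 709 against 455 CPM. The 4 lower genes were the glucose transporters Slc2a1 (33.2 against 52.9 CPM) and Slc2a3, the hexokinase Hk1 and Aldoa (466 against 624 CPM).

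The nuclear genes of the respiratory chain were slightly higher together. Of 51 genes 0 were called, 32 were higher and 1, Uqcrh, lower in 4 of 4 rows, beside 21.5% and 23.7% of all genes, with a median of 0.27 (depth-matched 0.18). Cycs, cytochrome c, stood at 249, 326, 323 and 325 CPM against 173, 160, 207 and 186 CPM, and Atp5g3, of the ATP synthase rotor, at 1004 against 653 CPM. The median share of mitochondrial UMIs was 1.52% in the replication-gene and 1.74% in the comparison cells. Of 18 TCA cycle genes 6 were higher and 1 lower in 4 of 4 rows (median 0.21, depth-matched 0.05).

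Serine synthesis gave the only calls among amino acid genes. Phgdh, the first enzyme of the pathway, stood at 204, 262, 252 and 236 CPM against 109, 101, 134 and 124 CPM (log2 ratio 1.03, depth-matched 0.46). Psat1, the next, stood at 96.7, 89.1, 120 and 122 CPM against 34.9, 33.5, 50 and 45.5 CPM (1.27, depth-matched 0.71). The third enzyme, Psph, differed by 0.21. Slc7a5, a transporter of large amino acids, stood at 71.6 against 32.2 CPM, while its partner Slc3a2 was lower at 138 against 187 CPM. Both serine genes were of the same height in mitosis-low and mitosis-high cells, with Phgdh at 235 and 244 CPM.

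Ribosome biogenesis genes were higher without a call (median 0.48, depth-matched 0.35). In 4 of 4 rows 18 of 25 were higher and 0 lower, beside 21.5% and 23.7% of all genes. Srm, which makes spermidine, stood at 175 against 90.6 CPM and Npm1, nucleophosmin, at 1333 against 944 CPM, each without overlap between rows. In the mitosis-low cells the list had a median of 0.61 over the comparison cells, and in the mitosis-high over the mitosis-low cells -0.28. Of 13 sterol and fatty acid genes 5 were higher in 4 of 4 rows (median 0.18), beside 21.5% of all genes. For 5 of the 13 the minimum was reached in the replication-gene cells only, so those could only be higher. Fdps stood at 88.0 CPM in the mitosis-low and 40 CPM in the mitosis-high cells.

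Of 15 S100, galectin and Ly6 genes compared, 3 were called higher and 0 lower, against backgrounds of 4.21% and 0.644%. In 4 of 4 rows 6 were higher and 3 lower, beside 21.5% and 23.7% of all genes. The median log2 ratio was 0.06 (depth-matched 0.05). Lgals1, galectin-1, stood at 815, 941, 1525 and 1584 CPM against 353, 428, 684 and 642 CPM, with a log2 ratio of 1.33 over all cells, 0.26 among depth-matched cells and 1.33 with all cells thinned. S100a4 had 1.22, 0.30 and 1.10 under these settings, and Vim, vimentin, 1.05, 0.58 and 1.00. All 3 ratios were smaller in the depth window. Thinning lowered those of S100a4 and Vim by less and left that of Lgals1 at 1.33. In both groups rows 16 and 18 stood above rows 12 and 14 for Lgals1 and Vim.

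Among survival genes Bax stood at 257 against 195 CPM, higher in 4 of 4 rows, while the BH3-only gene Bbc3 was lower at 24.1 against 55.5 CPM (log2 ratio -0.94, depth-matched -1.31). Interferon-stimulated genes held 0 calls, with 8 of 13 lower in 4 of 4 rows, beside 23.7% of all genes. Their median was -0.65 (depth-matched -0.36). Ifit3 stood at 13.8, 8.35, 7.99 and 32.8 CPM against 47.1, 25.3, 59.0 and 60.4 CPM.

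Genes of other cells moved with the groups. Among the genes with the lowest ratios were immunoglobulin and MHC class II genes, Igkc at 22.6 against 118 CPM, Jchain at 74.6 against 224 CPM and H2-Aa at 48.2 against 141 CPM. The 10 B cell markers summed to 261 CPM in the replication-gene cells (218 to 380 by row) and to 732 CPM in the comparison cells (472 to 1210), 3 of the 4 that could be compared were called lower, and Pax5 and Ebf1 were at 0 in the replication-gene cells. The 10 myeloid markers summed to 220 CPM (181 to 283) against 368 CPM (314 to 437), with Csf1r, Itgam, Xcr1 and Fcgr3 at 0. The 10 DP thymocyte markers summed to 138 CPM (51.5 to 234) against 121 CPM (107 to 143), with none at 0, and the 7 stage 0 markers to 272 CPM (252 to 318) against 252 CPM (235 to 287). Per cell, 3 or more myeloid UMIs were found in 22.5% of the replication-gene and 10.6% of the comparison cells. For stage 0 markers these shares were 20.9% and 6.66%, for DP thymocyte markers 5.49% and 1.32%, and for B cell markers 23.6% and 20.9%. These are raw UMIs, and the replication-gene cells were deeper. The part of other cell types in the results was not tested beyond leaving out cells with 3 or more UMIs on such markers. That left 105 replication-gene and 3379 comparison cells, and kept 232 of the 281 genes called higher and 25 of the 43 called lower.

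Other leading genes lay outside the lists. Tcf19, a factor of the G1 to S transition, stood at 137 against 8.14 CPM. At the other end, Kdm5b, a demethylase of histone H3, stood at 16.6 against 70.8 CPM (log2 ratio -1.60, depth-matched -1.88), Tcp11l2 at 9.05 against 56.1 CPM (-1.80, depth-matched -1.75) and Gimap5, a GTPase of lymphocyte survival, at 81.4 against 225 CPM (-1.36, depth-matched -1.17). These 3 were lower in 4 of 4 rows, and their ratios differed little at matched depth.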

How the data were processed

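Poly(A) RNA of hashtagged thymocytes was measured in 1 droplet library and 1 hashtag library. The authors made the deposited counts, UMIs per gene or hashtag and barcode, with Cell Ranger 6.0.0 on mouse mm10. Which release of that reference was used is not stated here. The counts were not normalized and precede the filters of the study, which used Seurat.

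Cells had at least 1000 genes, at most 5% mitochondrial UMIs, and 80% of at least 10 UMIs on hashtag rows 11 to 18 on row 12, 14, 16 or 18. This leaves out droplets with mixed hashtags. Others, and doublets within a row, may remain, and no doublet caller or correction for free RNA was run. UMIs were summed over cells and divided by the total. Ratios were taken on a log2 scale after adding 10 CPM. The 91 ribosomal protein and 8522 Gm genes were left out of the genes compared. A call needs the same direction in every row with at least 20 of the chosen cells.

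The cells and gene lists were chosen with earlier results of these data known. Genes named are the 7 of the rule, those of the lists, and the 15 with the highest and 15 with the lowest ratios among called genes. Junb, Fos and Dusp1 were added after their values were seen. Near-identical copies such as histone genes share reads, so single members are uncertain. Intervals are exact Poisson or Clopper-Pearson intervals at 95% and cover counting error only. The ratio and call steps were tested on simulated data. Python 3.11.15, numpy 2.4.6, scipy 1.17.1 and pandas 2.3.3 were used. Promoters are those of RefSeq, GRCm38.p6. Some genes of the lists are not reported here by name.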

Additional observations from a re-analysis of the deposited data

Results flagged for a closer look

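Nearly all hashtag UMIs lay on rows 11 to 18, with 1352182 to 7856856 UMIs each over all barcodes. Row 1 held 12255 UMIs and row 4 held 11854, more than any of the other rows outside that range, of which row 7 had the most with 599. In the 182 replication-gene cells row 1 held 260 and row 4 held 43 UMIs. These 2 rows were used in no comparison, and they are given because they carry a signal in data outside the main measurement.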

How the results depend on the processing

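The share of replication-gene cells, the counts of called genes, the medians of 11 lists and the ratios of 36 named genes were recomputed under 21 alternatives, of which 2 were chosen after seeing the data. No count, share or list median changed its direction. Of the single genes, 2 near 0 took the other sign in 4 cases: Nkg7, at -0.03, stood at 0.03 with 500 genes and 10% mitochondrial UMIs, 0.15 at matched depth and 0.09 without cells with other markers, and Il2rb, at -0.17, stood at 0.03 after thinning. Of the values for single genes, 683 stayed within their spread and 73 moved, and of the shares, counts and medians 240 stayed and 54 moved. The cause of the changes was not tested.

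With a limit of 4 on the 7 genes the share was 5.19%, 21 genes were called lower, and the medians were 1.51 for licensing, 1.40 for fork and repair, 0.78 for nucleotide synthesis and -0.32 for NK receptors. With a limit of 8 these were 2.26% and 74 genes, with fork and repair at 1.77, NK receptors at -0.40 and respiratory chain at 0.33. With 500 genes and 10% mitochondrial UMIs allowed, the share was 2.59%, 71 genes were lower and NK receptors stood at -0.49. A hashtag share of 95% gave fork and repair 1.73 and NK receptors -0.34. NK receptors stood at -0.40 with at most 4000 genes per cell, at -0.40 with comparison levels standardised to the rows, at -0.33 with no minimum level, and at -0.41 without cells with 2 TRBV segments, where the respiratory chain stood at 0.32.

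Among depth-matched cells the rule cells were 26.5% of the cells in that range, 70 genes were lower, and the medians were -0.21 for effectors, -0.20 for TCR and costimulation, -0.20 for cytokine receptors and 0.18 for the respiratory chain. Thinned to 2000 UMIs, 106 genes were lower, with cytokine receptors at -0.19 and the respiratory chain at 0.19. The depth-matched calls needed the same direction in 2 rows with enough cells, in place of 4, and the settings with a 95% hashtag share, without marker cells and without a row needed 3, so these counts also move with that rule. List medians in this section are over the genes that reach the minimum in each setting. The depth-matched fit kept 197 of the 281 higher and 15 of the 43 lower genes, and thinning kept 216 and 27. Without cells with markers of other cell types the share was 2.61%, 70 genes were lower, effectors stood at -0.21 and NK receptors at -0.40.

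A pseudocount of 1 CPM gave 134 lower genes and medians of 2.04 for licensing, 2.19 for fork and repair and 2.43 for mitosis. A pseudocount of 50 CPM gave 92 higher and 12 lower genes, and 0.91, 0.95 and 0.89 for these lists, 0.58 for nucleotide synthesis and -0.26 for NK receptors. A minimum of 100 CPM gave 101 higher and 25 lower genes, with licensing at 1.96, nucleotide synthesis at 1.30, mitosis at 2.23, cytokine receptors at -0.47 and glycolysis at 0.63.

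Leaving out each hashtag row in turn gave 261 to 302 higher and 48 to 67 lower genes, and effector medians of -0.42 to -0.068. No paired analysis was possible because no test was made. Both groups were set side by side within each row, and with comparison levels standardised to the rows 282 genes were higher and 41 lower. The library is 1 pooled sample, so the spread between mice is unknown, and with 182 cells low genes have wide counting intervals.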
